A study of Mus musculus with 7 samples.

Results

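The genes described here are 10 pigment genes of the melanosome: Tyr, Tyrp1, Dct, Pmel, Mlana, Oca2, Slc45a2, Slc24a5, Gpr143 and Rab38. They were chosen by name for their known place in pigment cells and not by a rule on their values, although earlier results of these data were known. All 10 have a row among the 52740 gene identifiers of the table, and all 10 were kept by the filter on low counts, which left 16990 genes. RNA was sequenced from the retinal pigment epithelium (RPE), the pigmented cell sheet behind the photoreceptors, of 4 WT mice (F1, F2, F3 and M1) and 3 LC3b-/- mice (F1, F3 and M), with 1 library for each mouse and with F and M for the sex. The WT mice are of the C57BL6/J strain. The LC3b-/- mice are of the strain B6;129P2-Map1Lc3btm1Mrab/J, in which Map1lc3b, the gene of the autophagy protein LC3b, is disrupted in every cell from the germ line, so that strain background and the targeted gene cannot be told apart. All mice were labelled 24 months old, and RPE was released with hyaluronidase and trypsin after the cornea, lens and ciliary body had been taken off. The mouse names also hold a group number that WT and LC3b-/- mice never share, and its meaning is not given in the sources used here. P-values therefore measure the spread between these mice as they were labelled.

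Melanin is made inside melanosomes, organelles related to lysosomes. Fibrils of the protein PMEL form first, enzymes of the tyrosinase family are then delivered by sorting complexes, and ion transporters set the pH and salt content in which tyrosinase works. RPE cells of mice make most of their melanin before and shortly after birth and keep their melanosomes for life, whereas melanocytes of the choroid, which derive from the neural crest, lie just outside the RPE and use the same genes. In a bulk library fewer pigment cells and less RNA per pigment cell cannot be told apart, and neither can RPE and choroidal melanocytes as the source of a transcript.

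The MITF family of transcription factors binds the word CATGTG, which with a T before it (TCATGTG) is known as the M-box of pigment gene promoters. Promoter sequence from RefSeq was matched for 5 of the 10 genes, and each was placed by an exact and single match in GRCm39, the genome build of the counts. The sequences are shown because they carry this shared element. They read 5′ to 3′ on the strand of the gene, and capitals mark CATGTG or its reverse complement CACATG, with the extra base of the M-box where it is present. For Tyr and Dct the window is the 250 bases before the RefSeq start, and for the other 3 genes 30 bases around the word are shown. The RefSeq start lies 90, 316 and 211 bases after the GENCODE gene start in Tyrp1, Oca2 and Slc24a5, so that these 3 stretches lie inside the GENCODE gene and not upstream of it. In Tyr the starts are the same, and in Dct the RefSeq start is 2 bases further upstream. The canonical GENCODE transcript of Tyrp1 starts only 8 bases before the RefSeq start, so the Tyrp1 stretch lies upstream of that transcript.
Tyr (GRCm39, chr7:87142721-87142970, minus strand): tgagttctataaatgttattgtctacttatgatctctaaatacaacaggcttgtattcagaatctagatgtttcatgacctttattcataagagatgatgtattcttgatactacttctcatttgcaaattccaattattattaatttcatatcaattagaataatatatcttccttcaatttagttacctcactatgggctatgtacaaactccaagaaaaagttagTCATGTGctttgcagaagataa
Dct (GRCm39, chr14:118289659-118289908, minus strand): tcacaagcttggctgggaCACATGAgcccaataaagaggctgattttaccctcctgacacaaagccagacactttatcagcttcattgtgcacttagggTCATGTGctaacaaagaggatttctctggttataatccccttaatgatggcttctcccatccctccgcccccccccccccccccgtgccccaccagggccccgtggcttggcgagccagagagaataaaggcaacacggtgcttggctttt
Tyrp1 (GRCm39, chr4:80752391-80752420, plus strand): gtggggagggagTCATGTGctgcctagtag
Oca2 (GRCm39, chr7:55889309-55889338, plus strand): ttgagcttgctaCACATGgctggaattttc
Slc24a5 (GRCm39, chr2:124910017-124910046, plus strand): ggaggaaggagactgctCACATGAttcagc
CATGTG on either strand was present in all 5 promoters, against 12.3% of 32851 RefSeq promoters of the same 250 bases. TCATGTG on either strand was present in 4 of the 5, all but Oca2, against 3.25% of all promoters, and every TCATGTG contains a CATGTG. Counted from the RefSeq start, the M-box began 22 bases before it in Tyr and 47 bases before it in Tyrp1, and its reverse complement began 13 bases before it in Slc24a5. Dct held 2 of them, which began 151 and 232 bases before the start, and the CACATG of Oca2 began 186 bases before it. For comparison, CACGTG, the other E-box word of this family, was present in 6.02% of all promoters. A match of letters is a description of the sequence and not of binding. Pmel, Mlana, Slc45a2, Gpr143 and Rab38 are named only.

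The libraries held 24495952 to 34819720 counts in WT and 26704461 to 35616134 counts in LC3b-/-. Map1lc3b was 115 ± 11.2 CPM (counts scaled to a common library size) in WT (SD, n = 4) and 7.28 ± 0.901 CPM in LC3b-/- (SD, n = 3), a log2 fold change of -3.98 with a standard error (SE) of 0.15 (edgeR quasi-likelihood test, adjusted p = 1.86e-04 by Benjamini-Hochberg), and it went with the label in all 7 libraries. The defining RPE transcripts were abundant, and the summed level of 8 RPE markers was 30775 to 48571 CPM in WT and 13286 to 28795 CPM in LC3b-/-, without overlap. Of these markers, 7 of 8 had a negative fold change, against 48.8% of all genes, and their median log2 fold change was -0.90. With edgeR 6 of 8 had an unadjusted p under 0.05, all lower, against 10.6% of all genes in that direction. None passed the adjusted test, which 0.235% of all genes passed with a change of at least 1.5-fold. With DESeq2 the study counted Rdh5 and Slc16a8 among its differentially expressed genes and found no significant change of Best1 and Rpe65. Rpe65, the isomerase of the visual cycle, was 2179, 2132, 2437 and 3968 CPM in WT and 878, 1340 and 2134 CPM in the LC3b-/- mice (log2 fold change -0.89, edgeR adjusted p = 0.203), whereas Best1, an RPE chloride channel gene, was at only 0.861 to 1.71 CPM. All 6 surface epithelium markers had positive fold changes (sum 4.87 to 2037 CPM in WT, 2052 to 15359 CPM in LC3b-/-, highest in LC3b-/- F1), as were 6 of 6 endothelial markers (170 to 546 and 672 to 720 CPM) and 6 of 6 fibroblast markers (328 to 1371 and 836 to 1836 CPM). Photoreceptor markers ranged from 22.0 to 18415 CPM in WT and from 38.9 to 6327 CPM in LC3b-/-, with 6 of 6 negative fold changes. Macrophage markers summed to 362 to 485 and 216 to 425 CPM with 3 of 6 negative, and Schwann cell markers to 271 to 3977 and 201 to 257 CPM with 3 of 5 negative. No gene of these 6 lists passed the adjusted test. The part of these differences in the pigment gene values was not tested.

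Pigment genes were expressed in every library, and none passed the adjusted test for a difference between the genotypes. Of the 10 genes, 9 had a lower fitted level in LC3b-/-, against 48.8% of all genes tested, and their median log2 fold change was -0.44, against 0.01 over all genes. A gene counts as differentially expressed here at an adjusted p under 0.05 with a change of at least 1.5-fold. With edgeR 0 of 10 pigment genes passed, against 0.235% of all genes (40 of 16990), and with DESeq2 0 of 10 passed, against 9.41% of the genes to which it gave an adjusted p. Oca2 and Gpr143 had an unadjusted p under 0.05 with edgeR, both with lower values, where 10.6% of all genes had one in that direction and 13.5% in the other. The 2 groups overlapped in all 10 pigment genes, while 22.3% of all genes were without overlap and 10.3% were without overlap and lower in LC3b-/-.

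**Figure D1:**
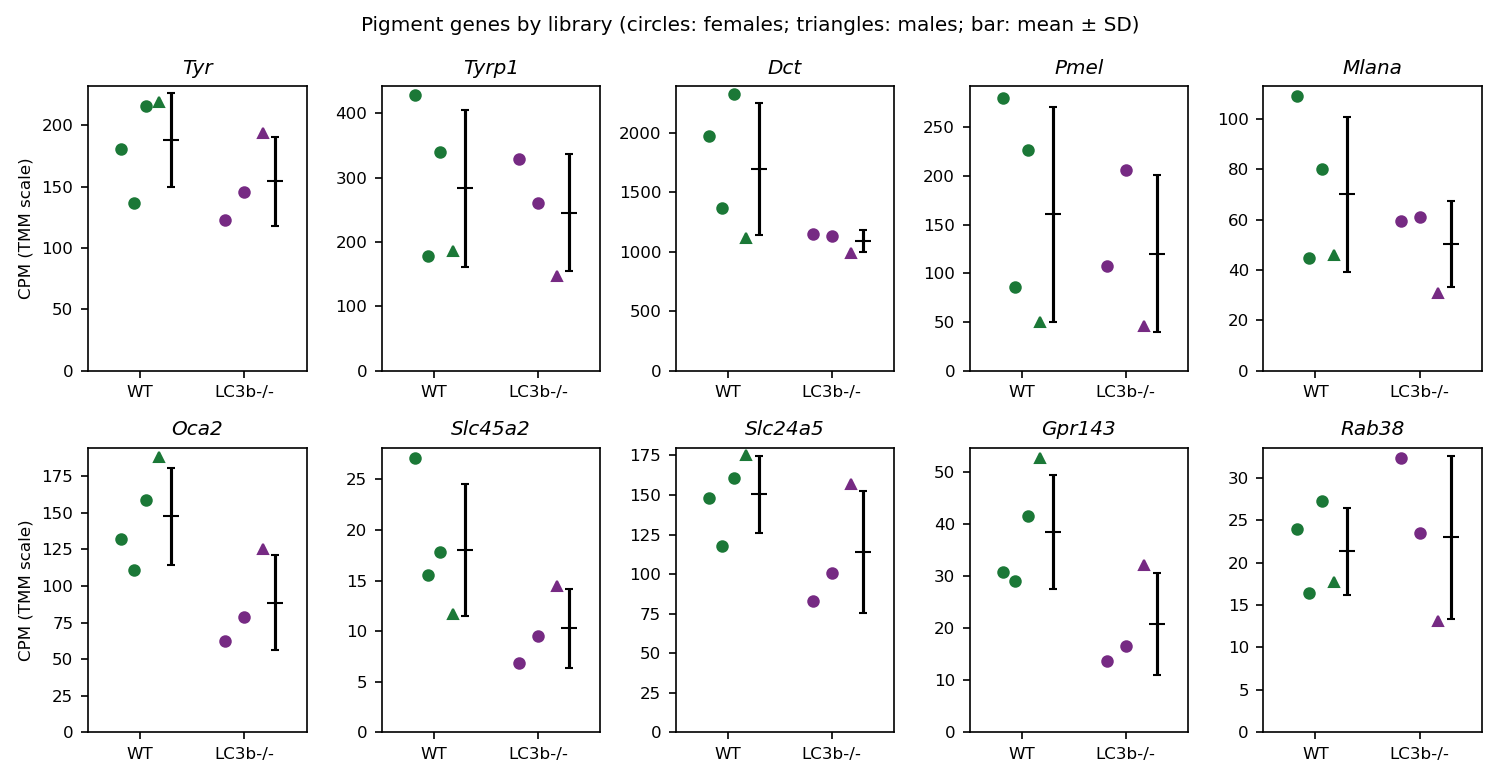
Level of each pigment gene in CPM on the scale of the trimmed mean of M-values (linear axes from 0), with 1 point per library, circles for females, triangles for males and bars for the group mean ± SD of 4 WT and 3 LC3b-/- libraries. In every panel at least 1 LC3b-/- library lies within or above the WT range, and for Dct the LC3b-/- libraries sit together near the lowest WT library.

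Among the WT mice, levels per length of transcript (CPM per kilobase of the canonical transcript) set Dct apart from the other pigment genes. Dct stood at 770 ± 251 CPM per kilobase (SD, n = 4), which is 64.1% of the sum over the 10 genes, and its lowest WT library (508) was above the highest WT library of Tyrp1 (156). Tyrp1 followed at 103 ± 44.3, Mlana at 77.2 ± 33.7, Pmel at 75.2 ± 51.5 and Slc24a5 at 69.6 ± 11.4 CPM per kilobase, and the ranges of each neighbouring pair overlapped. Lower in this order were Oca2 at 42.6 ± 9.67, Tyr at 31.1 ± 6.36 and Gpr143 at 22.6 ± 6.38 CPM per kilobase, again with overlapping neighbours. Slc45a2 at 6.03 ± 2.19 and Rab38 at 4.40 ± 1.07 CPM per kilobase were the lowest, overlapped each other and did not reach the range of Gpr143. The WT mice themselves differed most in Pmel, by 5.59-fold between the highest and lowest library, and least in Slc24a5, by 1.49-fold.

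The 3 enzymes of the tyrosinase family showed different degrees of scatter and no called difference. Tyr encodes tyrosinase, the rate-limiting enzyme that oxidises tyrosine to dopaquinone (ENSMUSG00000004651, GRCm39 chr7:87073979-87142720, minus strand, 5 exons). Tyr was 181, 137, 216 and 219 CPM in the WT mice (F1, F2, F3 and M1, in this order) and 123, 146 and 194 CPM in the LC3b-/- mice (F1, F3 and M). Only LC3b-/- F1 lay under the whole WT range, and the other LC3b-/- libraries lay inside it. The means were 188 ± 38.4 CPM (SD, n = 4) and 154 ± 36.5 CPM (SD, n = 3), a log2 fold change of -0.28 (SE 0.22, edgeR adjusted p = 0.460), and the two-sided exact permutation test over the 35 ways of dividing 7 libraries into 4 and 3 gave p = 0.286, where the smallest p it allows is 0.0286. Tyr shares 177 bases at 96.6% identity with a transcript of Nup214, in reverse complement, and a split of counts was not tested.

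Tyrp1 encodes tyrosinase-related protein 1, which takes part in the later steps toward eumelanin and stabilises tyrosinase (ENSMUSG00000005994, chr4:80752360-80769956, plus strand, 8 exons). Tyrp1 was 428, 179, 340 and 186 CPM in WT and 328, 260 and 148 CPM in LC3b-/-, in the same order of libraries. WT F2 and WT M1 lay between the LC3b-/- values, under LC3b-/- F1 and F3 and above LC3b-/- M. The log2 fold change was -0.21 (SE 0.39, edgeR adjusted p = 0.776, two-sided exact permutation p = 0.771, WT 283 ± 122 CPM, n = 4, LC3b-/- 245 ± 90.6 CPM, n = 3). It turned to 0.06 when WT F1 was left out and to 0.05 when LC3b-/- M was left out. Tyrp1 shares 215 bases at 95.8% identity with Gm45386, and counts could be split between the pair.

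Dct encodes dopachrome tautomerase, which converts dopachrome to its carboxylated indole and is active early in RPE development (ENSMUSG00000022129, chr14:118250202-118289656, minus strand, 8 exons). Dct was 1973, 1367, 2326 and 1120 CPM in WT and 1153, 1136 and 988 CPM in LC3b-/-. The 3 LC3b-/- libraries lay within 1.17-fold of each other, and the male WT library was the only WT library among them. The means were 1696 ± 552 CPM (SD, n = 4) and 1092 ± 90.6 CPM (SD, n = 3), a log2 fold change of -0.64 (SE 0.28, edgeR unadjusted p = 0.0563, adjusted p = 0.219, two-sided exact permutation p = 0.200). Its fold change stayed between -0.79 and -0.45 with each library left out in turn.

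The genes of the fibril protein and its partner had the highest ratios between WT mice, 5.59-fold for Pmel and 2.42-fold for Mlana. Pmel encodes the protein whose fragments form the fibrils on which melanin is laid down (ENSMUSG00000025359, chr10:128540064-128556107, plus strand, 11 exons). Pmel was 280, 85.9, 226 and 50.1 CPM in WT and 108, 206 and 46.5 CPM in LC3b-/-. Both male libraries were the lowest of their genotype, and LC3b-/- F3 was above 2 of the 4 WT libraries. The log2 fold change was -0.42 (SE 0.69, edgeR adjusted p = 0.741, two-sided exact permutation p = 0.686, WT 161 ± 110 CPM, n = 4, LC3b-/- 120 ± 80.3 CPM, n = 3), so its SE was larger than the change. It was -1.04 when LC3b-/- F3 was left out and -0.04 when LC3b-/- M was left out. Pmel overlaps Dgka and Cdk2 on the opposite strand by 1365 and 900 bases, the kit kept strand, and whether strand was used in the counting is not stated in the sources used here.

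Mlana encodes MART-1, which binds PMEL and aids its maturation (ENSMUSG00000024806, chr19:29674900-29686034, plus strand, 5 exons). Mlana was 109, 44.9, 80.2 and 46.1 CPM in WT and 59.5, 61.0 and 30.8 CPM in LC3b-/-. WT F2 and WT M1 lay between the LC3b-/- values, and the lowest library was the LC3b-/- male. The log2 fold change was -0.47 (SE 0.38, edgeR adjusted p = 0.475, two-sided exact permutation p = 0.343, WT 77.2 ± 33.7 CPM per kilobase, n = 4, LC3b-/- 55.7 ± 18.8 CPM per kilobase, n = 3), and without WT F1 it was -0.18.

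Transporters of the melanosome membrane had lower mean levels in LC3b-/- in 3 of 3 cases, and none passed the adjusted test. Oca2 encodes the P protein, a chloride channel component that makes the melanosome less acidic (ENSMUSG00000030450, chr7:55889191-56186280, plus strand, 24 exons). Oca2 was 132, 111, 159 and 188 CPM in WT and 62.3, 78.6 and 125 CPM in LC3b-/-. Only LC3b-/- M reached into the WT range, above WT F2 alone. The means were 148 ± 33.5 CPM (SD, n = 4) and 88.8 ± 32.7 CPM (SD, n = 3), a log2 fold change of -0.73 (SE 0.28, edgeR unadjusted p = 0.0322, adjusted p = 0.174, two-sided exact permutation p = 0.0857). With each library left out in turn it stayed between -1.07 and -0.54.

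Slc45a2 encodes MATP, a sugar and proton transporter that also raises melanosomal pH (ENSMUSG00000022243, chr15:11000803-11029319, plus strand, 7 exons). Slc45a2 was 27.1, 15.5, 17.8 and 11.7 CPM in WT and 6.85, 9.48 and 14.5 CPM in LC3b-/-. Both LC3b-/- females were under every WT library, whereas the LC3b-/- male was above the WT male. The log2 fold change was -0.81 (SE 0.35, edgeR unadjusted p = 0.0521, adjusted p = 0.211, two-sided exact permutation p = 0.114, WT 18.0 ± 6.54 CPM, n = 4, LC3b-/- 10.3 ± 3.89 CPM, n = 3).

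Slc24a5 encodes NCKX5, a potassium-dependent sodium and calcium exchanger required for full pigmentation (ENSMUSG00000035183, chr2:124909836-124930597, plus strand, 9 exons). Slc24a5 was 148, 118, 161 and 175 CPM in WT and 83.2, 101 and 157 CPM in LC3b-/-. The LC3b-/- females lay under all WT libraries and LC3b-/- M lay inside their range. The log2 fold change was -0.41 (SE 0.24, edgeR adjusted p = 0.338, two-sided exact permutation p = 0.171, WT 151 ± 24.6 CPM, n = 4, LC3b-/- 114 ± 38.3 CPM, n = 3). It overlaps Myef2 on the opposite strand by 4050 bases, of which 716 aligned bases are in transcripts of both. Slc24a5 also shares 100 bases at 100% identity with Gm37308 in the same orientation, and a split of counts was not tested.

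Of the receptor and the trafficking gene, Gpr143 had the most negative fold change of the 10 genes and Rab38 had the only positive one. Gpr143 encodes OA1, a receptor in the melanosome membrane that limits melanosome size (ENSMUSG00000025333, chrX:151564842-151591652, plus strand, 9 exons). Gpr143 was 30.8, 29.2, 41.6 and 52.7 CPM in WT and 13.8, 16.6 and 32.1 CPM in LC3b-/-. The LC3b-/- females were under every WT library, and LC3b-/- M stood above WT F1 and WT F2. The means were 38.6 ± 10.9 CPM (SD, n = 4) and 20.8 ± 9.88 CPM (SD, n = 3), a log2 fold change of -0.89 (SE 0.34, edgeR unadjusted p = 0.0341, adjusted p = 0.178, two-sided exact permutation p = 0.114). Without LC3b-/- M the fold change was -1.35.

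Rab38 encodes a small GTPase that brings tyrosinase and TYRP1 to melanosomes (ENSMUSG00000030559, chr7:88079466-88144036, plus strand, 3 exons). Rab38 was 23.9, 16.4, 27.3 and 17.7 CPM in WT and 32.3, 23.5 and 13.1 CPM in LC3b-/-, so that both the highest and the lowest of the 7 libraries were LC3b-/-. The log2 fold change was 0.11 (SE 0.32, edgeR adjusted p = 0.868, two-sided exact permutation p = 0.943, WT 21.3 ± 5.17 CPM, n = 4, LC3b-/- 23.0 ± 9.65 CPM, n = 3).

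The 10 genes did not vary as 1 block over the libraries. Tyr, Oca2, Slc24a5 and Gpr143 were highest in WT M1 and lowest in LC3b-/- F1, an order that 6 of 8 RPE markers had and 7.21% of all genes tested had. Tyrp1, Dct, Pmel, Mlana and Rab38 were instead lowest in LC3b-/- M, as were 6.82% of all genes and none of the RPE markers, and Tyrp1, Pmel, Mlana and Slc45a2 were highest in WT F1. These library orders were picked after the values were seen, so the shares of all genes beside them are a description. Counted by library against the WT mean of each gene, 4 of 10 pigment genes were lower in WT F1, all 10 in WT F2, none in WT F3 and 6 in WT M1, against 8 of 10 in each LC3b-/- library. The median deviation of the 10 genes on the log2 scale was -0.37 in both WT F2 and WT M1, against -0.55 (F1), -0.43 (F3) and -0.46 (M) among the knockout mice. For the RPE markers it was -0.23 and 0.40 in these WT libraries and -1.51, -1.13 and -0.29 in LC3b-/-. In LC3b-/- M, therefore, pigment genes deviated from the WT mean by more than RPE markers did, and in LC3b-/- F1 and F3 by less. That mean holds 3 females and 1 male. Beside the WT male alone the order for LC3b-/- M was the reverse. Its pigment gene median (-0.46) was close to that of WT M1 (-0.37), and its RPE marker median (-0.29) was far under that of WT M1 (0.40).

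**Figure D2:**
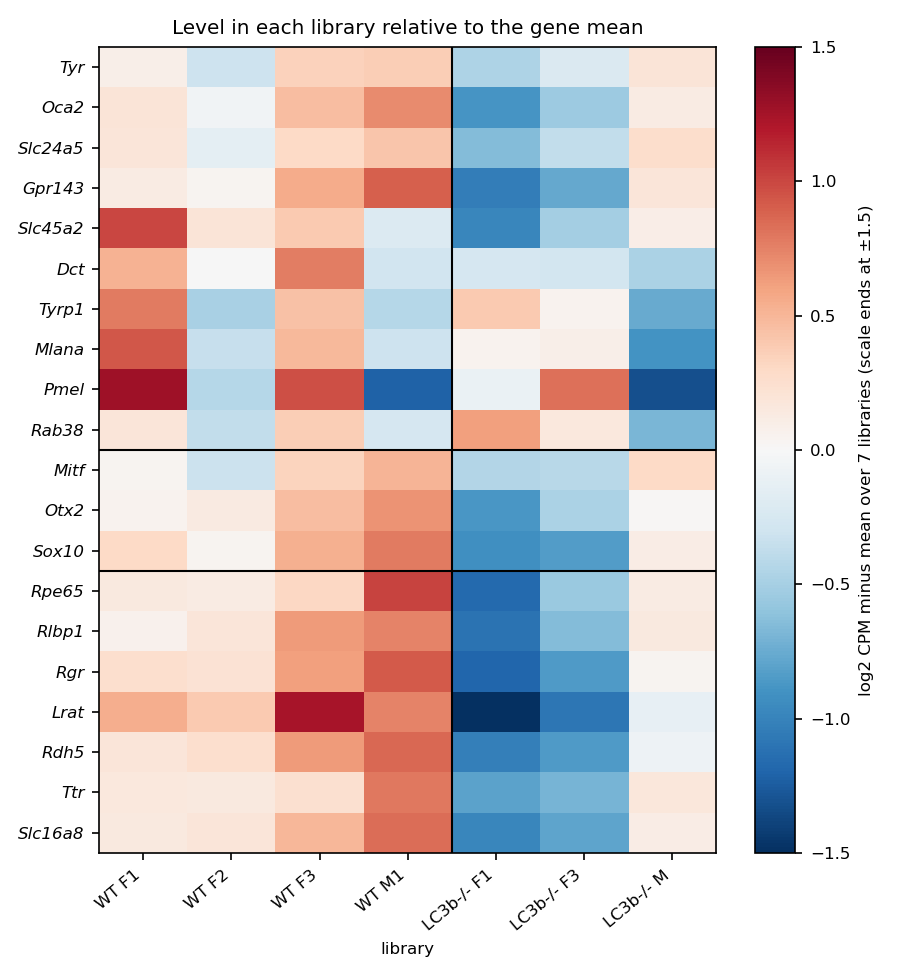
Heat map of log2 CPM minus the mean of each gene over the 7 libraries (columns), for the 10 pigment genes, then Mitf, Otx2 and Sox10, then 7 RPE markers, with red for higher and blue for lower and the colour scale ending at ±1.5. The RPE marker left out is Best1, which had a log2 fold change of 0.19. Tyr, Oca2, Slc24a5 and Gpr143 are highest in WT M1 and lowest in LC3b-/- F1, as are 6 of 8 RPE markers. Pmel is lowest in both male libraries, with 50.1 CPM in WT M1 and 46.5 CPM in LC3b-/- M.

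Males had a higher fitted level than females for Tyr, Oca2, Slc45a2, Slc24a5 and Gpr143 and a lower one for the other 5 pigment genes, with 1 male in each genotype. In a fit with genotype and sex, 6 of 10 pigment genes had an unadjusted p under 0.05 for sex, against 11.0% of all genes, and 0 of 16990 genes passed the adjusted test for sex with edgeR (1868 had an unadjusted p under 0.05). Males over females, the log2 difference was 0.85 for Gpr143 (SE 0.19, edgeR unadjusted p = 0.00359, adjusted p = 0.320), 0.66 for Oca2 (SE 0.18, unadjusted p = 0.00960) and 0.53 for Slc24a5 (SE 0.18, unadjusted p = 0.0251). It was -1.87 for Pmel (SE 0.52, unadjusted p = 0.0104, adjusted p = 0.338), -0.86 for Mlana (SE 0.33, unadjusted p = 0.0373) and -0.86 for Tyrp1 (SE 0.34, unadjusted p = 0.0417). Rpe65 had a difference of the same sign as the first of these groups, 0.88 (SE 0.20, unadjusted p = 0.00365). Since the males are 1 mouse of each genotype, a difference of sex and a difference of those mice cannot be told apart. The interaction of sex and genotype had an unadjusted p under 0.05 for 1 of 10 pigment genes (Slc45a2), against 3.59% of all genes.

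Expressed relative to the mean log2 CPM of the 8 RPE markers of the same library, a scale chosen after the data were seen, 9 of 10 pigment genes were higher in LC3b-/- and their median difference was 0.49. On this scale 96.3% of all genes were higher in LC3b-/- and 45.0% were higher without overlap, against 3 of 10 pigment genes (Tyr, Oca2 and Slc24a5). Tyr was -2.74, -3.08, -2.70 and -2.99 in WT and -2.10, -2.11 and -2.50 in LC3b-/-, a difference of 0.64 on this log2 scale (two-sided exact permutation p = 0.0286, the smallest it allows). For Gpr143, the exception among the 10, the difference was -0.02 (two-sided exact permutation p = 0.857). Oca2 differed by 0.16 and Slc45a2 by 0.12, and these were the smallest of the positive differences. The largest was that of Rab38, at 0.97 (two-sided exact permutation p = 0.200).

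**Figure D3:**
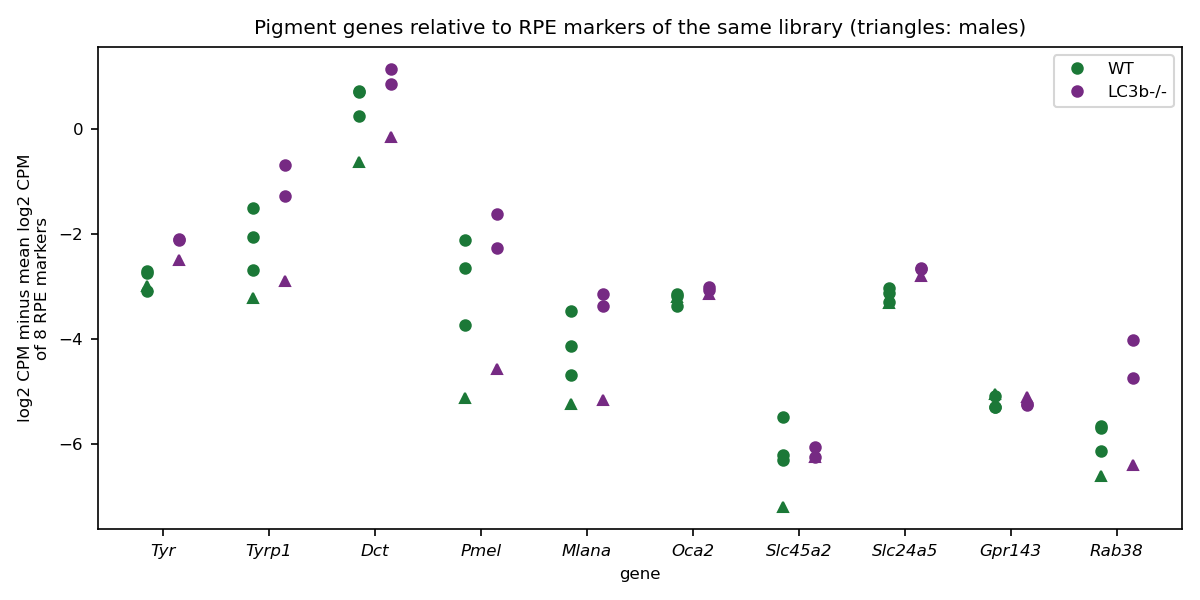
Log2 CPM of each pigment gene minus the mean log2 CPM of 8 RPE markers in the same library, with 1 point per library, green for WT, purple for LC3b-/- and triangles for males. The LC3b-/- points of Tyr, Oca2 and Slc24a5 lie above all WT points, and those of Gpr143 lie among them.

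A list of 45 other genes of the melanosome gave no more calls than the pigment genes, 0 of 44 tested with edgeR, where 10 had an unadjusted p under 0.05 (6 lower and 4 higher, where 10.6% and 13.5% of all genes had one). Tfec was too low to be tested. Of the 44, 25 had a lower and 19 a higher fitted level in LC3b-/-, with a median log2 fold change of -0.06, and 7 were without overlap (4 lower and 3 higher), against 22.3% of all genes. As shares of the 44, both totals are near or under those of all genes. DESeq2 called 4 of the 44, against 9.41% of all genes, namely Bloc1s1 (log2 fold change -0.70, adjusted p = 0.00404), Gpnmb (0.62, adjusted p = 0.0258), Tpcn2 (0.72, adjusted p = 0.0326) and Otx2 (-0.78, adjusted p = 0.0455).

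Of the transcription regulators, 2 of 6 were lower and 4 of 6 higher, with a median log2 fold change of 0.11. Mitf, the master regulator of pigment cells, was 57.3, 44.5, 70.3 and 79.3 CPM in WT and 41.3, 41.8 and 68.5 CPM in the LC3b-/- mice (log2 fold change -0.31, SE 0.26, edgeR adjusted p = 0.479). The LC3b-/- females were just under WT F2, and LC3b-/- M lay among the WT libraries. Otx2, a homeobox factor that acts with MITF in the RPE, was 361, 380, 480 and 552 CPM in WT and 189, 250 and 352 CPM in LC3b-/-. All LC3b-/- values of Otx2 were under all WT values, although LC3b-/- M was close to WT F1 (log2 fold change -0.75, SE 0.26, edgeR adjusted p = 0.148, two-sided exact permutation p = 0.0286, the smallest it allows).

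Of 23 genes of cargo sorting and organelle biogenesis, 15 were lower and 8 higher, with a median log2 fold change of -0.07. Bloc1s1, a subunit of the BLOC-1 complex that sorts cargo toward melanosomes, was 99.9, 106, 102 and 108 CPM in WT and 67.9, 51.1 and 76.9 CPM in LC3b-/-. The WT libraries lay close together and every LC3b-/- library was under them (104 ± 3.83 and 65.3 ± 13.1 CPM, SD, n = 4 and 3, log2 fold change -0.67, SE 0.15, edgeR unadjusted p = 0.00238, adjusted p = 0.0924). Without LC3b-/- M, edgeR called Bloc1s1 at an adjusted p of 0.0498. Bloc1s1 overlaps the RPE marker Rdh5 on the same strand over 7641 bases, with 0 bases shared between exons of their canonical transcripts. Rdh5 had a log2 fold change of -1.10 without overlap of the groups, and a split of reads between the pair was not tested. Snapin, another BLOC-1 subunit, was 69.8, 63.8, 67.1 and 72.4 CPM in WT and 47.7, 46.7 and 62.1 CPM in the LC3b-/- mice (log2 fold change -0.39, edgeR adjusted p = 0.144), and Bloc1s2 of the same complex was 13.5 ± 1.52 and 10.3 ± 0.793 CPM (SD, n = 4 and 3, log2 fold change -0.40, edgeR adjusted p = 0.174), both without overlap of the groups. Snapin shares 422 exon bases with Ilf2 on the opposite strand. Hps4, part of the BLOC-3 complex, was 34.3 ± 3.77 and 24.3 ± 5.65 CPM with overlap (SD, n = 4 and 3, log2 fold change -0.50, edgeR adjusted p = 0.162). In the other direction, Gpnmb, a relative of Pmel that macrophages also express, was 717, 447, 551 and 490 CPM in WT and 752, 897 and 919 CPM in LC3b-/-. Its lowest LC3b-/- library was just above WT F1 (log2 fold change 0.64, SE 0.20, edgeR adjusted p = 0.130, two-sided exact permutation p = 0.0571), and of 6 macrophage markers Ptprc (0.80), Tyrobp (0.67) and Adgre1 (0.36) had a fold change of the same sign and Csf1r (-0.69), C1qa (-0.45) and C1qb (-0.14) of the other, none of them past the adjusted test.

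Transporters outside the 10 pigment genes were 4 lower and 4 higher of 8, with a median log2 fold change of 0.03. Tpcn2, a cation channel of melanosomes and lysosomes, was 9.51, 9.32, 7.11 and 6.27 CPM in WT and 15.3, 13.8 and 11.2 CPM in LC3b-/-. All 3 LC3b-/- libraries were above all WT libraries (log2 fold change 0.74, edgeR adjusted p = 0.112, two-sided exact permutation p = 0.0286, the smallest it allows). Mfsd12, which imports cysteine into melanosomes and lysosomes, was 27.1 ± 2.92 CPM in WT and 33.9 ± 3.04 CPM in LC3b-/- (SD, n = 4 and 3, log2 fold change 0.32, edgeR adjusted p = 0.181), also without overlap of the groups, and it shares 715 exon bases with Tektip1 on the opposite strand.

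Of 7 genes of melanosome movement and positioning, 4 were lower and 3 higher, with a median log2 fold change of -0.17. Myrip, which links RAB27A on melanosomes to myosin VIIa in the RPE, was 238, 241, 301 and 376 CPM in WT and 85.0, 131 and 246 CPM in LC3b-/-. Here LC3b-/- M stood just above WT F1 and WT F2, and the LC3b-/- females were far under (log2 fold change -0.91, SE 0.36, edgeR adjusted p = 0.187). Mreg, which encodes melanoregulin, a cargo sorting protein of melanosomes that also binds LC3, was 5.47, 10.9, 6.14 and 6.88 CPM in WT and 19.9, 13.7 and 9.16 CPM in LC3b-/-. WT F2 was above LC3b-/- M, and the other WT libraries were under all LC3b-/- libraries (log2 fold change 0.95, SE 0.33, edgeR unadjusted p = 0.0216, adjusted p = 0.151, two-sided exact permutation p = 0.0857).

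**Figure D4:**
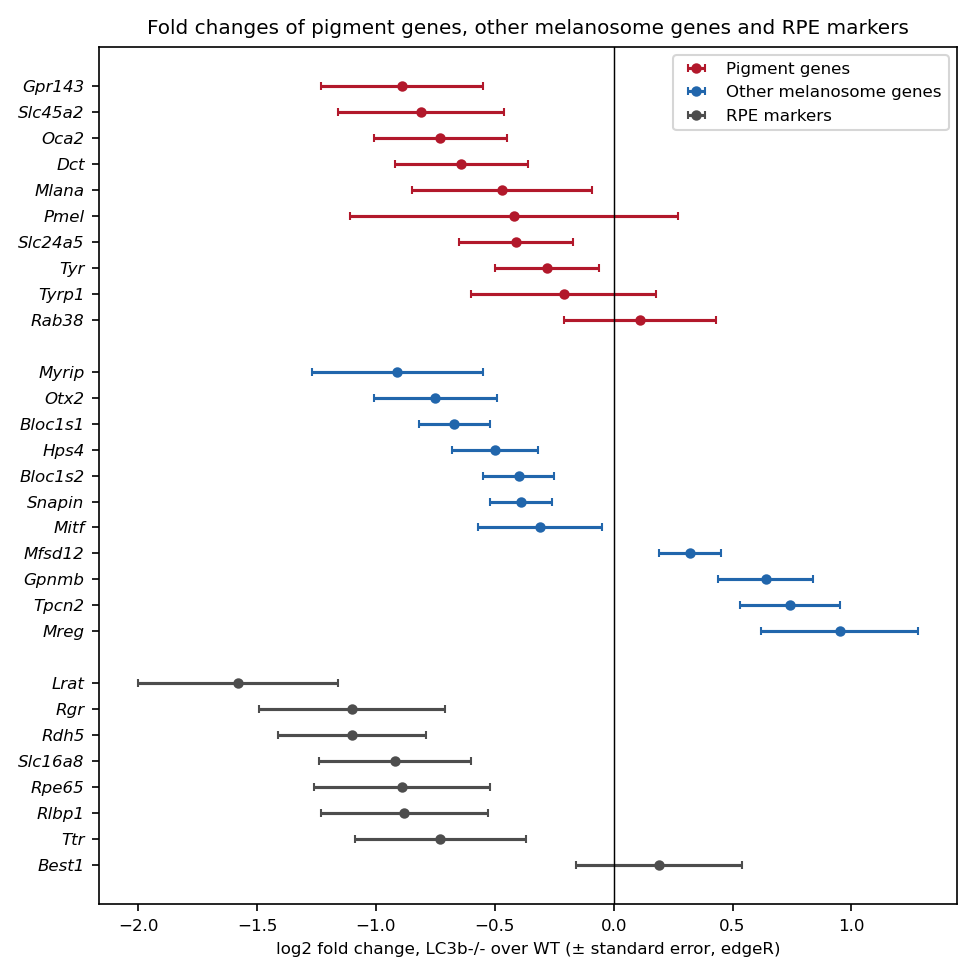
Log2 fold change of LC3b-/- over WT with its standard error from edgeR, for the 10 pigment genes (red), the other melanosome genes with an unadjusted p under 0.05 together with Mitf (blue) and 8 RPE markers (grey). Pigment genes reach from -0.89 for Gpr143 to 0.11 for Rab38, inside the span of the other melanosome genes, and the median of the RPE markers is -0.90.

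Markers of melanocytes, the other pigment cells the preparation could hold, did not move in 1 direction. Their summed level was 158 to 234 CPM in WT and 150 to 213 CPM in LC3b-/-, 3 of the 5 tested had a lower fitted level, and none passed the adjusted test. The sum joins genes that differed in opposite directions, so it does not measure melanocyte content. In LC3b-/- F1, at 213 CPM, it held 79.2 CPM of Erbb3 and 52.0 CPM of Kit beside 59.6 CPM of Sox10. Sox10, a neural crest factor, was 139, 116, 164 and 195 CPM in WT and 59.6, 63.5 and 122 CPM in the LC3b-/- mice (log2 fold change -0.91, SE 0.30, edgeR adjusted p = 0.139). Sox10 was highest in WT M1 and lowest in LC3b-/- F1, as were 6 of 8 RPE markers. Ednrb, the endothelin receptor of melanocyte precursors and of endothelium, was 74.8, 29.6, 7.41 and 8.42 CPM in WT and 21.8, 27.5 and 24.6 CPM in the LC3b-/- mice (log2 fold change -0.29, edgeR adjusted p = 0.848). Kit, the stem cell factor receptor, was 11.7, 8.87, 6.14 and 18.3 CPM in WT and 52.0, 20.2 and 20.1 CPM in the LC3b-/- mice (log2 fold change 1.45, edgeR adjusted p = 0.134). Erbb3, which epithelia also express, was 7.93, 2.36, 0.412 and 6.84 CPM in WT and 79.2, 38.3 and 12.4 CPM in the LC3b-/- mice (log2 fold change 3.29, edgeR adjusted p = 0.112). Kit and Erbb3 were without overlap and highest in LC3b-/- F1, the library with the highest surface epithelium sum. The melanocyte receptor Mc1r was at most 0.953 CPM, with 0 counts in WT M1 (log2 fold change -0.33, edgeR adjusted p = 0.875), and Pax3, too low to be tested, had 23 counts in WT F1, 0 in the other WT libraries and 1, 4 and 7 in LC3b-/-.

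The genes most like the 10 pigment genes over the libraries were found by the correlation of their log2 CPM with the mean standardised level of the 10, among genes of at least 10 CPM and over the 7 libraries, which is a description. These were Atat1, a tubulin acetyltransferase (r = 0.969), Mcoln1, a calcium channel of lysosomes (r = 0.954), Cox6b2, a subunit of cytochrome oxidase (r = 0.949), Enpp4 (r = 0.946) and Gprasp1 (r = 0.942). Atat1 was 18.2, 14.9, 17.7 and 16.2 CPM in WT and 13.2, 14.1 and 13.6 CPM in the LC3b-/- mice (log2 fold change -0.30, edgeR adjusted p = 0.206). All points share libraries and scaling, and the mean of the LC3b-/- libraries was the lower one in all 5 genes, so that the likeness holds the difference of genotype as well.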

How the data were processed

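Poly-A RNA of mouse RPE was sequenced in 7 libraries with a stranded kit and 100 bp single reads, per the labels. The authors estimated transcript abundance with salmon 1.9.0 on GENCODE vM26 transcripts of GRCm39 and summed it to genes with tximeta 1.16.1, as the study's methods and the submitters' processing notes give it. The deposited values are estimated counts per gene as whole numbers, not scaled for depth; 0 columns of other samples were present. Of 52740 identifiers, 1019 had no match in GENCODE vM39, which gave symbols, coordinates and transcript lengths.

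LC3b-/- was compared with WT by the quasi-likelihood test of edgeR 4.0.16 under R 4.3.3, with TMM scaling, no covariates and the filter filterByExpr, and p-values were adjusted over 16990 genes by Benjamini-Hochberg. A gene was called when its adjusted p was under 0.05 and it changed by 1.5-fold or more (0.585 on the log2 scale). Log2 CPM used a prior count of 2. The code was tested on simulated data. The biological coefficient of variation was 0.398. Exact permutation tests were two-sided on mean log2 CPM. DESeq2 1.42.0, limma 3.58.1 (voom with sample quality weights), other scalings and filters, sex as a covariate, females only, a replicate block and each library left out were alternatives. The RPE-marker scale, the sex terms and the library orders were added after the data were seen. Near-identical transcripts were searched with BLAST 2.17.0 (at least 95% identity over 100 bases), promoters and tables were handled in Python 3.11.15, and figures drawn with matplotlib 3.10.9. The RefSeq promoter table is of another assembly, so its sequences were placed in GRCm39 by exact match, and promoters of chromosome 18 were left out of the counts.

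The pigment genes, the list of 45 other melanosome genes and the marker lists (melanocyte, Schwann cell, RPE, photoreceptor, endothelium, fibroblast, macrophage and surface epithelium) were chosen with earlier results of these data known. Genes named were all 10 pigment genes, Map1lc3b, the other melanosome genes with an unadjusted p under 0.05 together with Mitf, Otx2 and Mreg, all melanocyte markers, Rpe65, Best1 and the 5 genes of highest likeness among genes of at least 10 CPM.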

Additional observations from a re-analysis of the deposited data

Results flagged for a closer look

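Slc45a2 was singled out because the genotype difference ran in opposite directions in the sexes: both LC3b-/- females were under all 3 WT females (log2 difference -1.27), and the LC3b-/- male was above the WT male (0.31). The interaction term on the log2 scale was 1.61 (edgeR unadjusted p = 0.0328, adjusted p = 0.998), with 1 male in each genotype, so this did not pass the adjusted test. In none of the 29 genes checked did a WT library stand apart from the other WT libraries by Dixon's 95% limit.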

How the results depend on the processing

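None of the 10 pigment genes passed the adjusted test under any of 16 alternatives, the lowest adjusted p being 0.0524 for Gpr143 with sex as a covariate (edgeR). Of 160 pairs of gene and alternative, 154 kept the sign of the fold change and 6 did not. Those were Tyrp1, from -0.48 to 0.06 with single libraries left out, and Rab38, which was -0.01 with voom, -0.07 with the replicate block and from -0.23 to 0.38 with single libraries left out (-0.0014 without WT F2). Relative to the RPE markers the differences were 0.64 (Tyr), 0.75 (Tyrp1), 0.35 (Dct), 0.58 (Pmel), 0.49 (Mlana), 0.16 (Oca2), 0.12 (Slc45a2) and 0.49 (Slc24a5), and 2 genes had an exact permutation p under 0.05 against 0 otherwise. The share of all genes with such a p on this scale was not taken, but 45.0% of all genes were higher there without overlap. The 2 genes are therefore not a result about pigment genes. On this scale every gene of a library is shifted by the same amount, and 7 of 8 markers themselves had a negative fold change. The part of this shift in the permutation p-values was not tested.

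The number of pigment genes with an unadjusted p under 0.05 (2) was 4 with DESeq2, 4 with DESeq2's size factors in edgeR, 4 without the filter, 4 with sex as a covariate, 5 in females only, 7 with the replicate block and 0 to 4 with single libraries left out. It was 0 without LC3b-/- F1 or LC3b-/- F3 and 4 without LC3b-/- M. Of the other melanosome genes, 4 were called by DESeq2, against 9.41% of all genes, and 0 to 1 with single libraries left out. With single libraries left out, 4 to 18 of them had an unadjusted p under 0.05 (10 in the main fit). The share of all genes with such a p was taken for the main edgeR fit only (10.6% lower, 13.5% higher). Under the alternatives, these counts of pigment and other melanosome genes therefore cannot be set against all genes. Over all genes the 40 calls became 1810 with DESeq2, 124 with voom, 78 without the filter, 197 with sex, 96 in females, 1 with the replicate block and 11 to 485 with single libraries left out. The replicate numbers, unlike the group numbers, are shared between WT and LC3b-/- in F1 and F3 only, so they were taken as numbers alone. The replicate block joined these pairs and also the male of each genotype. With that replicate block Map1lc3b was -3.98 at an adjusted p of 0.110. The causes of these shifts were not tested. With 4 and 3 mice the exact test cannot go under 0.0286, and a p that misses a threshold does not show equal levels.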
